A study of Mus musculus with 28 samples.

Results

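The genes described here make cholesterol and fatty acids or control their synthesis. They were chosen by name, 31 in all, as enzymes of the mevalonate and sterol pathway with their regulators (21 genes, the sterol branch) and as enzymes of fatty acid synthesis, elongation and desaturation with their regulator (10 genes, the fatty acid branch). A member was measured by the probe set that carried its symbol alone, or by the brightest one on average over the 28 arrays where there were several. This gave 20 sterol and 10 fatty acid genes, 30 of the 18193 genes measured, and Acat2 was not analysed here. The RNA came from macrophages that had been grown from marrow; the mice were C57BL/6 J, 12 weeks old. It was read on Affymetrix mouse arrays, 4 for each of 7 groups. In the compound experiment, cells with Nrf2 (Nrf2+/+, called WT) or without it (Nrf2-/-, called KO) were kept for 4 h with RA839, a small molecule that binds Keap1, or with its solvent DMSO; both media held 0.2% DMSO. In the siRNA experiment, WT cells were treated with a control siRNA (siControl) or with siRNA siKeap1-1 or siKeap1-2, both of which target Keap1. The design text writes RA838 in 1 place and the sample labels write RA839. Neither the RA839 dose, nor the siRNA sequences, nor when RNA was taken after transfection, nor which part of Nfe2l2 (the gene of Nrf2) the KO allele lacks is given in the sources used here. The arrays of a group are called biological replicates in the design text, with no statement of which animals or cultures they share.

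Cholesterol is built from acetyl units through mevalonate, isoprenoid diphosphates and squalene, which is closed to lanosterol and trimmed to cholesterol. Fatty acids are built from the same acetyl units by acetyl-CoA carboxylase and fatty acid synthase and are then lengthened by elongases and given double bonds by desaturases. Both branches are switched on by the sterol regulatory element-binding proteins, the products of Srebf2 (chiefly sterol genes) and Srebf1 (chiefly fatty acid genes), which Insig1 holds in the endoplasmic reticulum when sterols are plentiful. Macrophages take up lipid from dead cells and lipoproteins as well as making it, and the Keap1 partner Nrf2 is a transcription factor that drives antioxidant and detoxification genes, among them suppliers of NADPH, which both branches consume.

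Because SREBP and its partner factors bind close to the start of these genes, the RefSeq promoter windows of the members were searched (assembly GRCm38.p6, 250 bases before to 50 after the gene start). A window was at hand for 23 members, 16 sterol and 7 fatty acid. A pentamer of the factor NF-Y, CCAAT, was in the window of 16 of 16 sterol members and 4 of 7 fatty acid members, beside 42% of the 14367 measured genes with a window. The Sp1 hexamer GGGCGG was in 15 of 16 and 3 of 7, beside 57.5%. One form of the sterol regulatory element, TCACNCCAC, was in 1 of 16 sterol windows, that of Hmgcs1, and in 0 of 7 fatty acid windows, beside 1.45%. The core of the antioxidant response element bound by Nrf2, TGACNNNGC, was in 4 of 16 and 0 of 7, beside 16.1%. Both strands were searched, a gene with several windows counts once, and a match is a match of letters and no more. The 250 bases before the gene start are shown for the 3 sterol and 2 fatty acid members with a window and the largest called change, of those called in at least 2 comparisons, and for Hmgcs1 as the sterol member with the element; this choice was made after the values were seen, and Sc5d, level with Idi1 at 2 decimals, is not shown. Capitals mark the first 3 motifs or their reverse complements, and a pair of CCAAT matches overlaps in Fasn. In these 250 bases Msmo1 holds 3 CCAAT and 2 GGGCGG, Idi1 2 and 1, Cyp51 1 and 1, Hmgcs1 3 and 2 beside its element, Fasn 3 and 0 and Fads2 0 and 1. Cyp51 lies at chr5:4104698-4104947 (minus strand), Msmo1 at chr8:64733579-64733828 (minus strand), Idi1 at chr13:8885356-8885605 (plus strand), Hmgcs1 at chr13:119690101-119690350 (plus strand), Fads2 at chr19:10101504-10101753 (minus strand) and Fasn at chr11:120824548-120824797 (minus strand), each written 5′ to 3′ toward the gene.
Cyp51: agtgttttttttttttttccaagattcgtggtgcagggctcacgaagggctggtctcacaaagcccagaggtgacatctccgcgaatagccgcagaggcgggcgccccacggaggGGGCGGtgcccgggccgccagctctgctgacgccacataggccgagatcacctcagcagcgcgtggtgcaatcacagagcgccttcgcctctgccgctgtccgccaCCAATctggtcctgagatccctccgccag
Msmo1: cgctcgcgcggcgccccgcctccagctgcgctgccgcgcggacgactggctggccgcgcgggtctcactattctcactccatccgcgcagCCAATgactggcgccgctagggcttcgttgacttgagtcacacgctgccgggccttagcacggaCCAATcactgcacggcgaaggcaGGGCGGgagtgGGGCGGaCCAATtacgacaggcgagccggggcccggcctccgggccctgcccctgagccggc
Idi1: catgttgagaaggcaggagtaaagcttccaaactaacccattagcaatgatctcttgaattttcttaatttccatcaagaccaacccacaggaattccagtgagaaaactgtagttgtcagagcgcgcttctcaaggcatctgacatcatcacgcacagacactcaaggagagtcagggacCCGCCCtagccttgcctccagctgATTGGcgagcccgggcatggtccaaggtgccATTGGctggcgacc
Hmgcs1: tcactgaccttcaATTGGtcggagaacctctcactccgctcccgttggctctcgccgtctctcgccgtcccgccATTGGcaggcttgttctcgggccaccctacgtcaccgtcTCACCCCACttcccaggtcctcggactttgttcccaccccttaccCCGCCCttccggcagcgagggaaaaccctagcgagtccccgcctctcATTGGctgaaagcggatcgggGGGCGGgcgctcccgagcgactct
Fads2: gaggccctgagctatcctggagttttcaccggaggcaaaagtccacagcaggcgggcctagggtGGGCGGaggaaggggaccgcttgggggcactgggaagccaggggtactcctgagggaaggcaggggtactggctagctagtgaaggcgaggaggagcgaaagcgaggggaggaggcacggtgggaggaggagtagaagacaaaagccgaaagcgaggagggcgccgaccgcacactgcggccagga
Fasn: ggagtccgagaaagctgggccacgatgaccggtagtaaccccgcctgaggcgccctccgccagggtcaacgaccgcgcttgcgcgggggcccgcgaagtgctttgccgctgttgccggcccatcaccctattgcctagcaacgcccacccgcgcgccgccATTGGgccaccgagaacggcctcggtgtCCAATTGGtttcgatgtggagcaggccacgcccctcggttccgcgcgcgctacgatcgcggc

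Values are log2 RMA values, so that 1 unit is a doubling, and a level is not set against the level of another gene, since probe sets differ in brightness. Changes are log2 differences ± standard error from limma, fitted within 1 experiment over all 18193 genes with 4 arrays in each group, and a gene was called when its p (two-sided, adjusted by Benjamini-Hochberg) was under 0.05. The label checks held: Nfe2l2 was lower in KO (−9.32 ± 0.14, limma adjusted p = 1.88e-16) and Keap1 was lower with siKeap1-1 (−2.03 ± 0.08) and siKeap1-2 (−1.83 ± 0.08). Macrophage markers were high in every group, with summed log2 values of 16.18 to 16.54 over 8 genes, and adipocyte markers, which would bring much lipid synthesis with them, were low (3 measured genes with group means of 2.98 to 4.62). In bulk RNA, fewer cells of a type and less RNA per cell cannot be told apart. WT array 2 with RA839 stood apart in RNA quality: its 3′ minus 5′ signal was 3.74 for the Gapdh control and 3.10 for Actb, beside 0.73 to 1.00 and 1.28 to 2.04 on the other 27 arrays. It was the highest or lowest of its 4 arrays for 26 of the 30 members. In the siRNA experiment the arrays numbered 1 were the highest of their group for 24 members with siControl, 22 with siKeap1-1 and 21 with siKeap1-2.

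**Figure D1:**
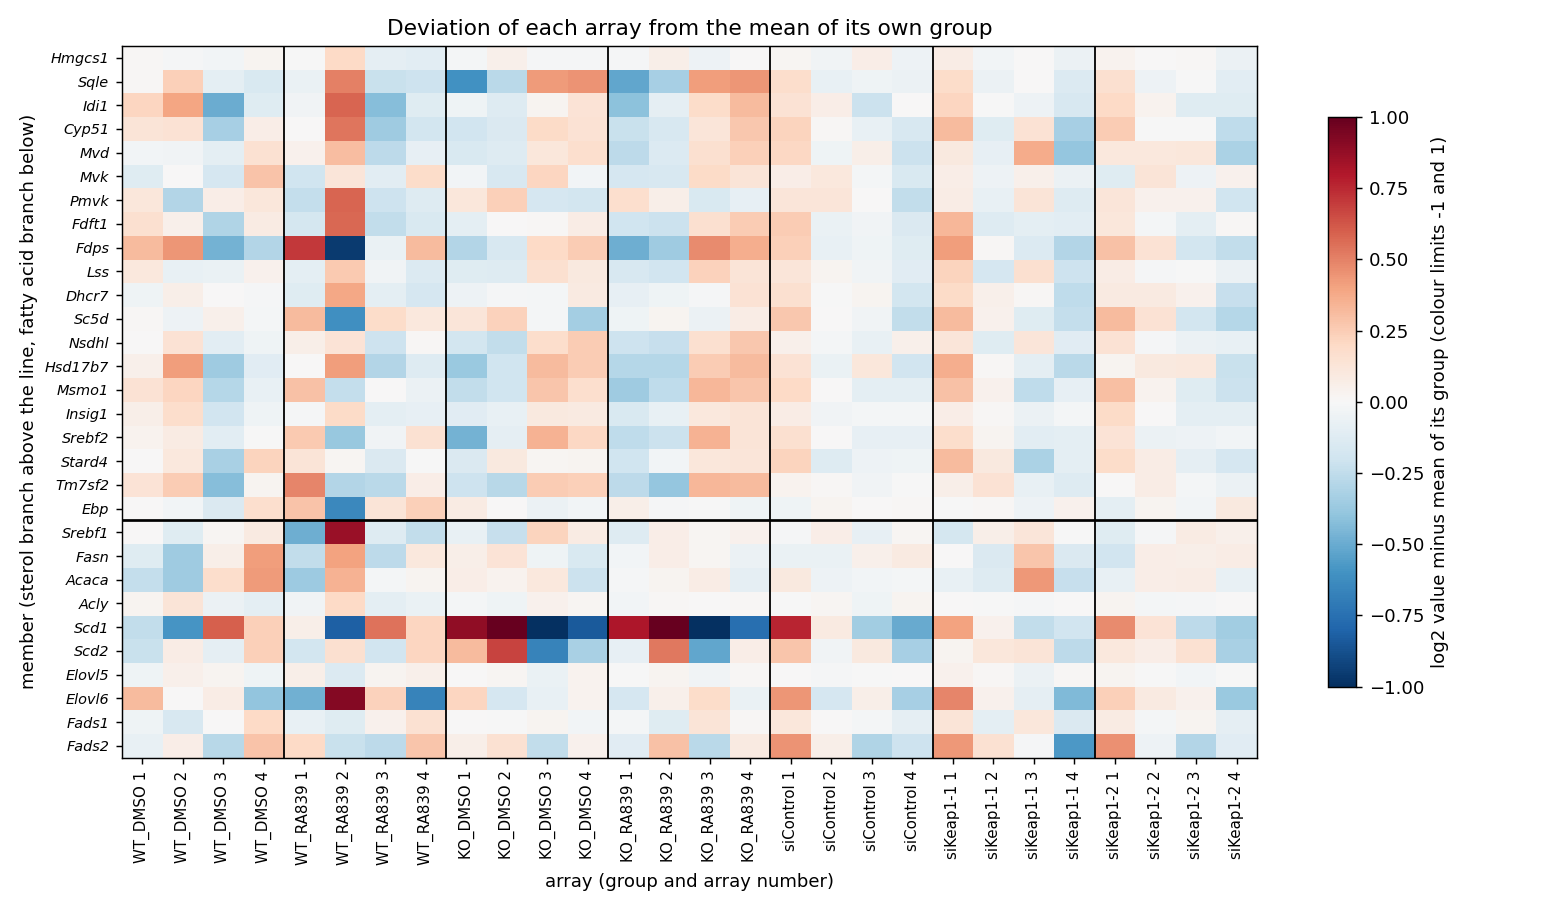
Each cell gives a member's log2 value on 1 array minus the mean of the 4 arrays of its group, with members in rows, arrays in columns and colour limits at −1 and 1. WT_RA839 array 2 deviates most in its group, arrays 1 and 2 of both KO groups differ from arrays 3 and 4, most in Scd1 and Sqle, and the siRNA arrays numbered 1 run high in most members.

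No member of either branch was called with RA839 in WT macrophages at 4 h. Of the 20 sterol genes 0 were called and of the 10 fatty acid genes 0, where 0.66% of all genes were called, 0.572% higher and 0.0879% lower; at an unadjusted limma p under 0.05 there were 1 and 0. The sterol members had a median log2 difference of −0.04 (−0.44 to 0.39) and the fatty acid members of 0.04 (−0.34 to 0.31), beside −0.01 over all genes. The 95% intervals lay within 1.5-fold in either direction for 12 sterol and 6 fatty acid members and within 2-fold for 19 and 9, and for the rest a 1.5-fold change lies inside the interval. With the replicate number added to the model as a block inside each genotype, where 2.67% of all genes were called, the counts were again 0 and 0.

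The member with the lowest adjusted p was Fdft1, squalene synthase, which commits isoprenoids to sterols. It read 10.53, 10.42, 10.07 and 10.45 with DMSO and 10.59, 11.34, 10.52 and 10.61 with RA839 on WT arrays 1 to 4, a difference of 0.39 ± 0.17 (limma adjusted p = 0.418). The groups overlapped, unlike those of 5.79% of all genes, and the highest RA839 value was that of array 2. Srebf1, the regulator of the fatty acid branch, likewise had its highest value on that array, with 9.20, 10.55, 9.56 and 9.44 with RA839 against 9.38, 9.26, 9.40 and 9.47 with DMSO (0.31 ± 0.21, limma adjusted p = 0.635). The largest difference of the sterol branch was that of Fdps, farnesyl diphosphate synthase, at −0.44 ± 0.32 (limma adjusted p = 0.665), with 9.19, 7.52, 8.41 and 8.80 under RA839 and 9.24, 9.36, 8.45 and 8.63 under DMSO. Without array 2 of WT with RA839 the range narrowed to −0.32 to 0.20 in the sterol and −0.29 to 0.19 in the fatty acid branch, again with 0 calls. Insig1, which retains the SREBP proteins, was at 0.19 ± 0.10 (limma adjusted p = 0.542), reading 13.59, 13.71, 13.34 and 13.49 and then 13.71, 13.92, 13.63 and 13.64. The rate-setting desaturase Scd1, which makes monounsaturated fatty acids, read 10.47, 10.12, 11.31 and 10.95 with DMSO and 10.44, 9.56, 10.92 and 10.59 with RA839, with a wide 95% interval of −1.60 to 0.93. Each RA839 value lay below the DMSO value of the same array number, which this fit does not pair. The interval rests on a spread pooled with the KO groups. Standard deviations were 0.52 (DMSO) and 0.58 (RA839) in WT and 1.33 and 1.11 in KO. By contrast Acly, which makes cytosolic acetyl-CoA from citrate, had an interval of −0.11 to 0.22, and Hmgcs1, which makes HMG-CoA, one of −0.20 to 0.11. For Hmgcs1 the mean of its probe sets gave −0.22, outside that interval (limma adjusted p = 0.288).

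In KO macrophages RA839 called 0 of 20 and 0 of 10 members as well, and 0% of all genes; 0 and 0 members passed at an unadjusted limma p under 0.05. The medians were 0.06 and 0.08, beside 0.00 over all genes, and 18 of 20 and 8 of 10 members had a value above 0, each with limma adjusted p = 1. With arrays shifted to a common median 11 of 20 and 6 of 10 had a value above 0. The largest value was that of the elongase Elovl6, 0.46 ± 0.26, whose dim probe set read 5.39, 5.01, 5.10 and 5.21 with DMSO and 5.47, 5.69, 5.82 and 5.57 with RA839. These groups did not overlap, as was so for 2.11% of all genes in this comparison. Fdft1 gave 0.24 ± 0.17, reading 9.68, 9.78, 9.79 and 9.85 and then 9.82, 9.80, 10.18 and 10.27, where the upper pair of RA839 values belonged to arrays 3 and 4. The response itself differed between the genotypes for 0 of 20 and 0 of 10 members (0.115% of all genes; 0 and 0 at an unadjusted p under 0.05), with limma adjusted p = 1 for each. The intervals of this difference were wide, within 2-fold for 19 and 7 members, and the arrays do not show that the branches respond alike in both genotypes.

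**Figure D2:**
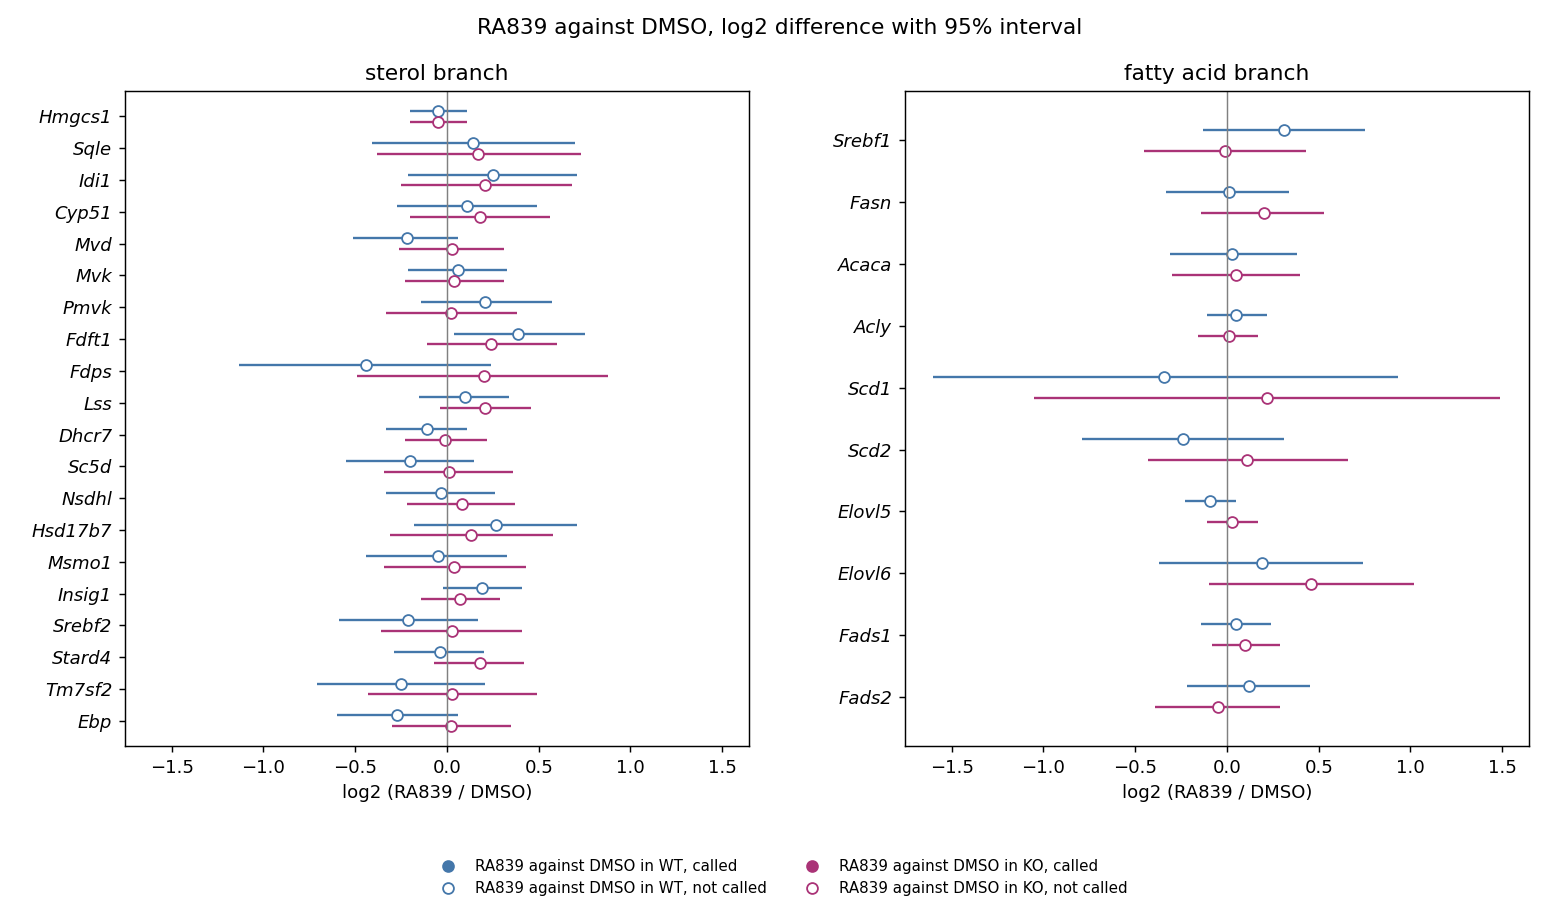
Points are log2 differences of RA839 against DMSO in WT and KO macrophages for the 20 sterol and 10 fatty acid members, and bars are 95% intervals (4 arrays per group). Open points mark members that were not called, which holds for all 30 in both genotypes; the bars of Scd1 and Fdps are the widest of their branches.

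Several members of the fatty acid branch were lower in KO than in WT macrophages without RA839. Of its 10 members 5 fell and 0 rose, where 13.8% of all genes fell and 11.2% rose (25.1% called). The 5 were Fasn, Acaca, Scd2, Fads1 and Fads2, and the branch median was −0.67, beside −0.02 over all genes. Fasn, fatty acid synthase, read 9.09, 8.86, 9.27 and 9.63 in WT and 7.79, 7.87, 7.69 and 7.58 in KO, a 2.78-fold difference (−1.48 ± 0.16, limma adjusted p = 1.14e-05). Every KO array lay below every WT array, and the KO values were the closer together. In this comparison the groups did not overlap for 29.5% of all genes. Acaca, the acetyl-CoA carboxylase that supplies malonyl-CoA to Fasn, fell less, from 9.58, 9.46, 9.99 and 10.24 to 9.16, 9.13, 9.20 and 8.88 (−0.72 ± 0.16, limma adjusted p = 0.00448).

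The desaturases Scd2, Fads1 and Fads2 fell as well. Scd2, a stearoyl-CoA desaturase, read 10.33, 10.63, 10.46 and 10.79 in WT and 9.43, 9.79, 8.45 and 8.79 in KO (−1.44 ± 0.26, limma adjusted p = 0.000842), with KO arrays 3 and 4 the lowest. Fads2, which begins the desaturation of polyunsaturated fatty acids, read 6.24, 6.38, 6.04 and 6.60 in WT and 4.90, 4.99, 4.59 and 4.88 in KO (−1.48 ± 0.16, 2.78-fold, limma adjusted p = 1.06e-05). Its partner Fads1 read 10.67, 10.55, 10.71 and 10.91 in WT and 9.91, 9.90, 9.93 and 9.88 in KO (−0.80 ± 0.09, limma adjusted p = 1.47e-05). None of these 3 overlapped between genotypes, as was so for 29.5% of all genes, and the 4 Fads1 values in KO lay closest together. The sister desaturase Scd1 gave no such picture: KO arrays 1 and 2 read 10.99 and 11.46, the first within the WT range of 10.12 to 11.31 and the other above it, while arrays 3 and 4 read 8.70 and 9.26, below all of WT (−0.61 ± 0.60, limma adjusted p = 0.49). Scd1 and Scd2 are close paralogs, and no overlap between their probes was examined.

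Other fatty acid members did not pass in DMSO. The regulator Srebf1 read 9.38, 9.26, 9.40 and 9.47 in WT and 8.97, 8.82, 9.27 and 9.13 in KO (−0.33 ± 0.21, limma adjusted p = 0.273), with 1 KO value inside the WT range. Acly read 13.72, 13.82, 13.64 and 13.60 in WT and 13.71, 13.69, 13.77 and 13.75 in KO (0.04 ± 0.08, 95% interval −0.13 to 0.20). The elongase Elovl5 differed by 0.00 ± 0.07 (95% interval −0.14 to 0.14), so both were held to a narrow range. For the elongase Elovl6, with 5.93, 5.62, 5.69 and 5.22 in WT and the KO values given above, the difference was −0.44 ± 0.26 (limma adjusted p = 0.24).

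The calls of the 5 fatty acid genes held without any 1 of the 8 arrays and under all alternatives that tested them (Fads2 was too dim for the brighter genes). The highest adjusted p when 1 array was left out was 0.0177, for Acaca. They rest on the brightest probe set of each gene, and some dimmer ones disagreed. Other probe sets of Fads2 gave −0.23 and −0.08 (limma adjusted p over all probe sets = 0.377 and 0.656; mean levels of 6.09 and 5.64, beside 6.26 for the one used). The second of Fads1 gave 0.10 (limma adjusted p over all probe sets = 0.728). Those of Scd2 gave −0.66 and −0.48 (limma adjusted p over all probe sets = 0.371 and 0.0528), and that of Acaca gave −0.38 (0.0159). Fasn had 1 probe set. With the mean of a gene's probe sets the differences were −0.86 for Scd2, −0.60 for Fads2 and −0.35 for Fads1, each still called (limma adjusted p = 0.0119, 0.00246 and 0.0251).

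In the sterol branch members fell at several points of the pathway. Of 20 members 7 fell in KO in DMSO and 0 rose, where 13.8% of all genes fell and 11.2% rose (25.1% called). Of the 20 members 17 had a value below 0, and the median was −0.36, beside −0.02 over all genes. The fall was largest at Cyp51, the lanosterol demethylase, which read 10.81, 10.83, 10.35 and 10.75 in WT and 9.60, 9.65, 9.99 and 9.94 in KO (−0.89 ± 0.18, limma adjusted p = 0.002). All 4 KO values lay below the WT values. Further down, Sc5d, a sterol desaturase, read 9.88, 9.82, 9.92 and 9.85 in WT and 9.28, 9.39, 9.14 and 8.82 in KO (−0.71 ± 0.16, limma adjusted p = 0.00536). Mvd, which decarboxylates mevalonate diphosphate, read 10.71, 10.70, 10.64 and 10.89 in WT and 9.92, 9.94, 10.18 and 10.24 in KO (−0.66 ± 0.13, limma adjusted p = 0.00213). Neither of these overlapped between the genotypes, as was so for 29.5% of all genes.

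Fdft1 and Lss, which form squalene and close its epoxide, fell too, with Sqle between them not called. Fdft1 read 10.53, 10.42, 10.07 and 10.45 in WT and 9.68, 9.78, 9.79 and 9.85 in KO (−0.60 ± 0.17, limma adjusted p = 0.0164). The lanosterol synthase Lss read 10.03, 9.85, 9.86 and 9.97 in WT and 9.41, 9.40, 9.69 and 9.63 in KO (−0.40 ± 0.12, limma adjusted p = 0.0208). Msmo1, which removes the methyl groups left after lanosterol, read 10.80, 10.87, 10.37 and 10.58 in WT and 9.84, 9.88, 10.36 and 10.25 in KO (−0.57 ± 0.18, limma adjusted p = 0.029), with KO arrays 3 and 4 nearest to WT. Stard4, a carrier of cholesterol between membranes and no enzyme, read 9.0, 9.10, 8.67 and 9.22 in WT and 8.47, 8.71, 8.63 and 8.64 in KO (−0.38 ± 0.11, limma adjusted p = 0.0219). Of these 4, Stard4 overlapped between the genotypes, KO array 2 lying above WT array 3. The calls of Lss, Msmo1 and Stard4 depended on single arrays. That of Lss ended without KO array 1 or 2 or WT array 1 (adjusted p up to 0.0607), that of Msmo1 without KO array 1 or 2 or WT array 1 or 2 (up to 0.0837) and that of Stard4 without KO array 1 or WT array 2 or 4 (up to 0.0706). All 3 also ended with the mean of a gene's probe sets and with arrays shifted to a common median, and that of Sc5d with the former. With the mean of probe sets the differences were −0.15 for Sc5d, −0.10 for Msmo1, −0.13 for Stard4 and −0.25 for Lss (limma adjusted p = 0.474, 0.658, 0.499 and 0.172).

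The remaining sterol members did not pass. Sqle, squalene epoxidase, read 9.77, 9.99, 9.66 and 9.60 in WT and 8.56, 8.90, 9.59 and 9.62 in KO (−0.59 ± 0.26, limma adjusted p = 0.114), and KO arrays 1 and 2 lay below all of WT while arrays 3 and 4 lay at its lower end. Tm7sf2, a sterol reductase, showed the same split, with 9.38, 9.50, 8.82 and 9.27 in WT and 8.62, 8.55, 9.08 and 9.07 in KO (−0.41 ± 0.22, limma adjusted p = 0.178). The early enzyme Hmgcs1 had a value above 0, with 13.85, 13.82, 13.81 and 13.86 in WT and 13.95, 14.02, 13.96 and 13.96 in KO (0.13 ± 0.07, limma adjusted p = 0.197). Its groups did not overlap, as was so for 29.5% of all genes. The regulator Insig1 gave −0.10 ± 0.10, with 13.59, 13.71, 13.34 and 13.49 in WT and 13.32, 13.36, 13.53 and 13.52 in KO. Srebf2 gave −0.06 ± 0.18, with 9.17, 9.22, 9.03 and 9.13 in WT and 8.61, 8.99, 9.43 and 9.29 in KO. In both regulators KO arrays 1 and 2 were the lower pair of KO. Idi1, which isomerises isopentenyl diphosphate, read 11.01, 11.19, 10.30 and 10.67 in WT and 10.67, 10.58, 10.74 and 10.85 in KO (−0.08 ± 0.22, limma adjusted p = 0.821). For Idi1 and Srebf2 a dimmer probe set disagreed: that of Idi1 gave −0.68 (limma adjusted p over all probe sets = 0.0107) and that of Srebf2 gave −0.72 (0.00103). The mean over probe sets gave 3 sterol members lower (Cyp51, Mvd and Fdft1) and 1 higher (Hmgcs1), with Cyp51 at −0.56 and Fdft1 at −0.29, and in the fatty acid branch 6 lower, with Elovl6 as the addition. Fdps differed by −0.51 ± 0.32, with 8.13, 8.26, 8.62 and 8.67 in KO and the WT values given above. The other members without a call were Ebp (−0.12), Dhcr7 (−0.17), Pmvk (−0.33), Nsdhl (−0.33), Hsd17b7 (0.15) and Mvk (0.27).

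**Figure D3:**
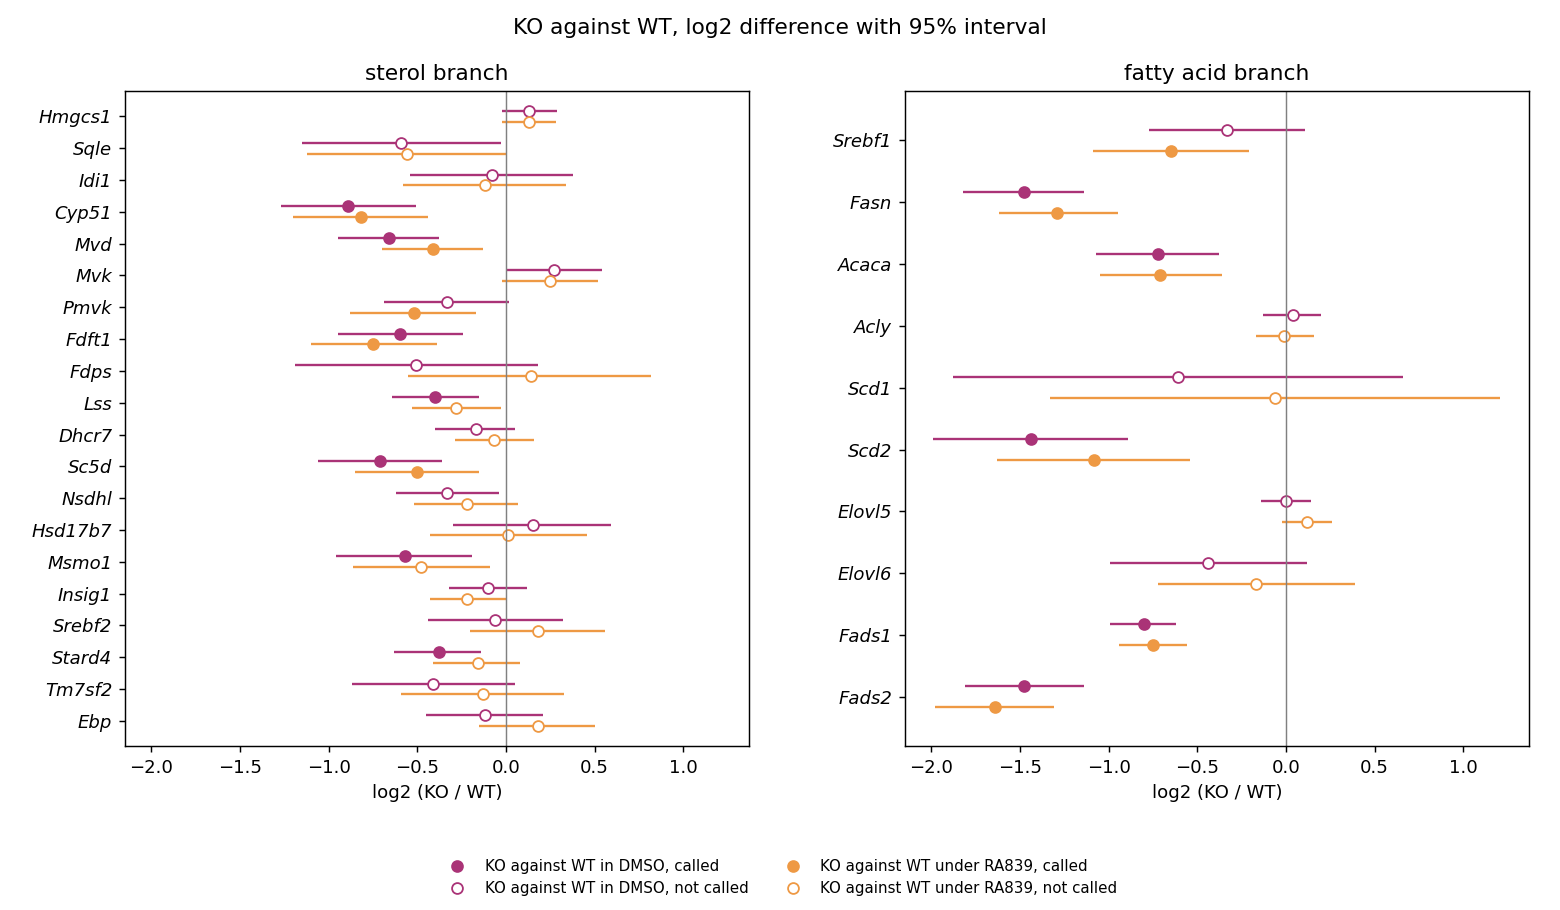
Points are log2 differences of KO against WT macrophages in DMSO and under RA839, and bars are 95% intervals (4 arrays per group); filled points are members called at adjusted p under 0.05. In DMSO 7 sterol and 5 fatty acid members are filled and all lie left of 0, the largest of them Fasn, Fads2 and Scd2.

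Some cell type markers were called between the genotypes too, where 13.8% of all genes fell and 11.2% rose in KO in DMSO (25.1% called). Of 9 neutrophil and precursor markers 3 fell and 0 rose in KO, and their summed log2 value was 12.12 to 12.27 on WT arrays and 11.01 to 11.56 on KO arrays with DMSO. The lowest gene mean on that list was 3.43 in WT and 3.19 in KO. Of 5 fibroblast and stroma markers 3 fell (sums of 6.63 to 8.10 and 6.51 to 7.11), and among 8 macrophage markers Fcgr1 and Cd14 rose and Itgam fell (sums of 16.27 to 16.33 and 16.28 to 16.42). Of the 3 measured adipocyte markers Adipoq rose, with sums of 5.14 to 5.42 and 5.28 to 5.42, near the low end of the arrays. The part of the neutrophil and stroma markers in the lower lipid synthesis genes was not tested, and differences between the KO and WT cultures other than Nrf2 cannot be told apart from the genotype.

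Among further genes of the same pathways, from a list fixed with results of these data known, Me1 and Acss2 fell most. Me1, the malic enzyme that makes NADPH and a known Nrf2 target, fell in KO in DMSO (−2.73 ± 0.15, limma adjusted p = 5.98e-09), and so did Acss2, which makes acetyl-CoA from acetate (−2.46 ± 0.37, limma adjusted p = 0.000224). The citrate carrier Slc25a1 fell (−0.71 ± 0.09), as did the elongases Elovl7 (−1.15 ± 0.10) and Elovl1 (−0.42 ± 0.10), Mid1ip1, which activates acetyl-CoA carboxylase (−0.61 ± 0.11), the transcription factor Mlx (−0.42 ± 0.13) and the triglyceride enzyme Dgat1 (−0.48 ± 0.13). In all 8 of 20 measured genes of that list fell and 2 rose, where 13.8% of all genes fell and 11.2% rose. Those that rose were Mcat (0.29 ± 0.09) and Gpam (0.26 ± 0.08), and the median of the list was −0.24. Of 11 further sterol genes 1 rose and 0 fell (median −0.04): Scap, the escort of the SREBP proteins (0.47 ± 0.10, limma adjusted p = 0.00241).

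Under RA839 too, members of the fatty acid branch were lower in KO than in WT. Of the fatty acid branch 6 of 10 fell and 0 rose, where 15.8% of all genes fell and 14.6% rose (30.4% called), and the median was −0.68 beside −0.01. Fads2 read 6.63, 6.21, 6.17 and 6.71 in WT and 4.68, 5.08, 4.52 and 4.88 in KO (−1.64 ± 0.16, limma adjusted p = 2.35e-06). Fasn read 8.97, 9.62, 8.95 and 9.32 in WT and 7.90, 8.0, 7.95 and 7.87 in KO (−1.29 ± 0.16, limma adjusted p = 2.78e-05). For Scd2 the values were 10.13, 10.47, 10.12 and 10.53 in WT and 9.15, 9.76, 8.71 and 9.30 in KO (−1.08 ± 0.26, limma adjusted p = 0.00513; 0.374 with the mean of its probe sets). Each of these was again without overlap, as were 30.9% of all genes under RA839. Fads1 read 10.68, 10.64, 10.80 and 10.91 in WT and 9.99, 9.89, 10.14 and 10.02 in KO (−0.75 ± 0.09, limma adjusted p = 1.91e-05). Acaca read 9.49, 10.20, 9.83 and 9.88 in WT and 9.13, 9.17, 9.22 and 9.05 in KO (−0.71 ± 0.16, limma adjusted p = 0.00424). In both, WT and KO arrays were again apart. With the mean of a gene's probe sets the differences were −0.61 for Fads2, −0.46 for Acaca and −0.38 for Fads1, each still called. Srebf1 was the sixth, reading 8.91, 9.11, 9.06 and 9.08 in KO against the WT values given above (−0.65 ± 0.21, limma adjusted p = 0.0274). It was called too without WT array 2 but not without KO array 1 or 3 (adjusted p up to 0.0666), nor when only the groups compared entered the fit.

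Scd1 once more split by array number under RA839, with 11.13, 11.41, 9.18 and 9.57 in KO (−0.06 ± 0.60, limma adjusted p = 0.955). Acly read 13.71, 13.95, 13.65 and 13.68 in WT and 13.71, 13.75, 13.74 and 13.75 in KO and differed by −0.01 ± 0.08, Elovl5 differed by 0.12 ± 0.07 and Elovl6, with 5.32, 6.72, 6.03 and 5.13 in WT, by −0.17 ± 0.26. The 5 fatty acid genes called in DMSO were all among the 6 called under RA839. Same-numbered arrays within a genotype deviate together, so the 2 comparisons are not independent of each other.

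Of the sterol branch 5 of 20 fell under RA839 and 0 rose, where 15.8% of all genes fell and 14.6% rose (30.4% called). The branch median was −0.19 beside −0.01 over all genes. Cyp51 read 10.80, 11.33, 10.44 and 10.61 in WT and 9.75, 9.81, 10.09 and 10.24 in KO (−0.82 ± 0.18, limma adjusted p = 0.00276). Fdft1, with the values by array given above, differed by −0.75 ± 0.17 (limma adjusted p = 0.00338), and neither gene overlapped. Both were called without any 1 array and under all other settings tried. The replicate block across the genotypes (32% of all genes called) is no check of them, since array numbers do not pair samples there. With the mean of a gene's probe sets the Fdft1 difference was −0.32 (limma adjusted p = 0.018). Mvd read 10.56, 10.82, 10.25 and 10.43 in WT and 9.84, 9.96, 10.26 and 10.34 in KO (−0.41 ± 0.13, limma adjusted p = 0.0301). Sc5d read 9.98, 9.05, 9.85 and 9.77 in WT and 9.12, 9.19, 9.11 and 9.24 in KO (−0.50 ± 0.16, limma adjusted p = 0.0319). Both overlapped, Sc5d through WT array 2. Pmvk, which phosphorylates phosphomevalonate, differed by −0.52 ± 0.17 (limma adjusted p = 0.0276). These calls rested on single arrays: Mvd lost its call without KO array 1 or 2 or WT array 1 or 2 (adjusted p up to 0.0971), Pmvk without KO array 3 or 4 or WT array 2 (up to 0.072) and Sc5d without KO array 1, 2 or 3 or WT array 1, 3 or 4 (up to 0.0954). When only the groups compared were fitted, 2 sterol members were called, Cyp51 and Fdft1. With the mean of a gene's probe sets Mvd and Sc5d were not called, and Hmgcs1 and Mvk were higher. Without WT array 2, which stood apart in RNA quality, 4 sterol members were lower (Cyp51, Fdft1, Sc5d and Msmo1), Hmgcs1 was higher, and the same 6 fatty acid members were lower.

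Cyp51, Fdft1, Mvd and Sc5d were called lower in both media, Lss, Msmo1 and Stard4 in DMSO and Pmvk under RA839. A call in 1 medium alone does not show a difference between media, for which the test of the RA839 response between genotypes called 0 members. Msmo1 read 10.89, 10.36, 10.60 and 10.54 in WT and 9.77, 9.87, 10.46 and 10.40 in KO under RA839 (−0.48 ± 0.18, limma adjusted p = 0.056). Lss read 9.93, 10.29, 9.99 and 9.89 in WT and 9.58, 9.55, 9.97 and 9.87 in KO (−0.28 ± 0.12, limma adjusted p = 0.0791). Stard4 read 9.08, 8.97, 8.81 and 8.95 in WT and 8.59, 8.76, 8.90 and 8.91 in KO (−0.16 ± 0.11, limma adjusted p = 0.296). The 3 genes had the sign seen in DMSO (Msmo1 was at 0.04 with the mean of probe sets), and their groups overlapped. Sqle read 9.83, 10.40, 9.68 and 9.69 in WT and 8.82, 9.01, 9.76 and 9.78 in KO (−0.56 ± 0.26, limma adjusted p = 0.12), again lowest on KO arrays 1 and 2. Tm7sf2 read 9.48, 8.70, 8.72 and 9.06 in WT and 8.60, 8.47, 9.19 and 9.18 in KO (−0.13 ± 0.22), with the same pair lowest in KO. Hmgcs1 read 13.79, 13.99, 13.70 and 13.69 in WT and 13.91, 13.98, 13.87 and 13.93 in KO (0.13 ± 0.07). Idi1 read 11.01, 11.63, 10.62 and 10.92 in WT and 10.51, 10.83, 11.11 and 11.24 in KO (−0.12 ± 0.22). Neither was called, nor were Fdps (0.14 ± 0.32, with 8.13, 8.26, 9.09 and 8.98 in KO), Insig1 (−0.22 ± 0.10, with 13.35, 13.43, 13.61 and 13.63 in KO) or Srebf2. Srebf2 read 9.19, 8.55, 8.89 and 9.08 in WT and 8.85, 8.89, 9.45 and 9.23 in KO (0.18 ± 0.18). Of the further fatty acid genes, 6 of 20 fell and 2 rose, where 15.8% of all genes fell and 14.6% rose: Acss2 at −3.24 ± 0.37, Me1 at −3.51 ± 0.15, Slc25a1 at −0.47 ± 0.09, Elovl7 at −0.93 ± 0.10, Elovl1 at −0.37 ± 0.10 and Mid1ip1 at −0.37 ± 0.11. Mcat (0.36) and Gpam (0.25) rose. Of 11 further sterol genes Scap rose (0.48 ± 0.10) and the SREBP protease Mbtps2 fell (−0.38 ± 0.13, limma adjusted p = 0.0367). The neutrophil sum was 11.64 to 12.10 in WT and 10.87 to 11.24 in KO, with 1 of 9 markers lower. Of the 5 stroma markers 3 fell (sums of 6.71 to 7.17 and 6.56 to 7.24), and of the 8 macrophage markers 2 rose and 1 fell (16.18 to 16.34 and 16.23 to 16.42). One marker each rose on the lists of 6 T and NK cell genes (7.49 to 7.87 and 7.53 to 8.47) and 3 B cell genes (6.80 to 7.62 and 7.03 to 7.60), and 1 of 3 fell on that of mast cells (5.66 to 6.31 and 5.66 to 5.78). Their part in the result was not tested.

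**Figure D4:**
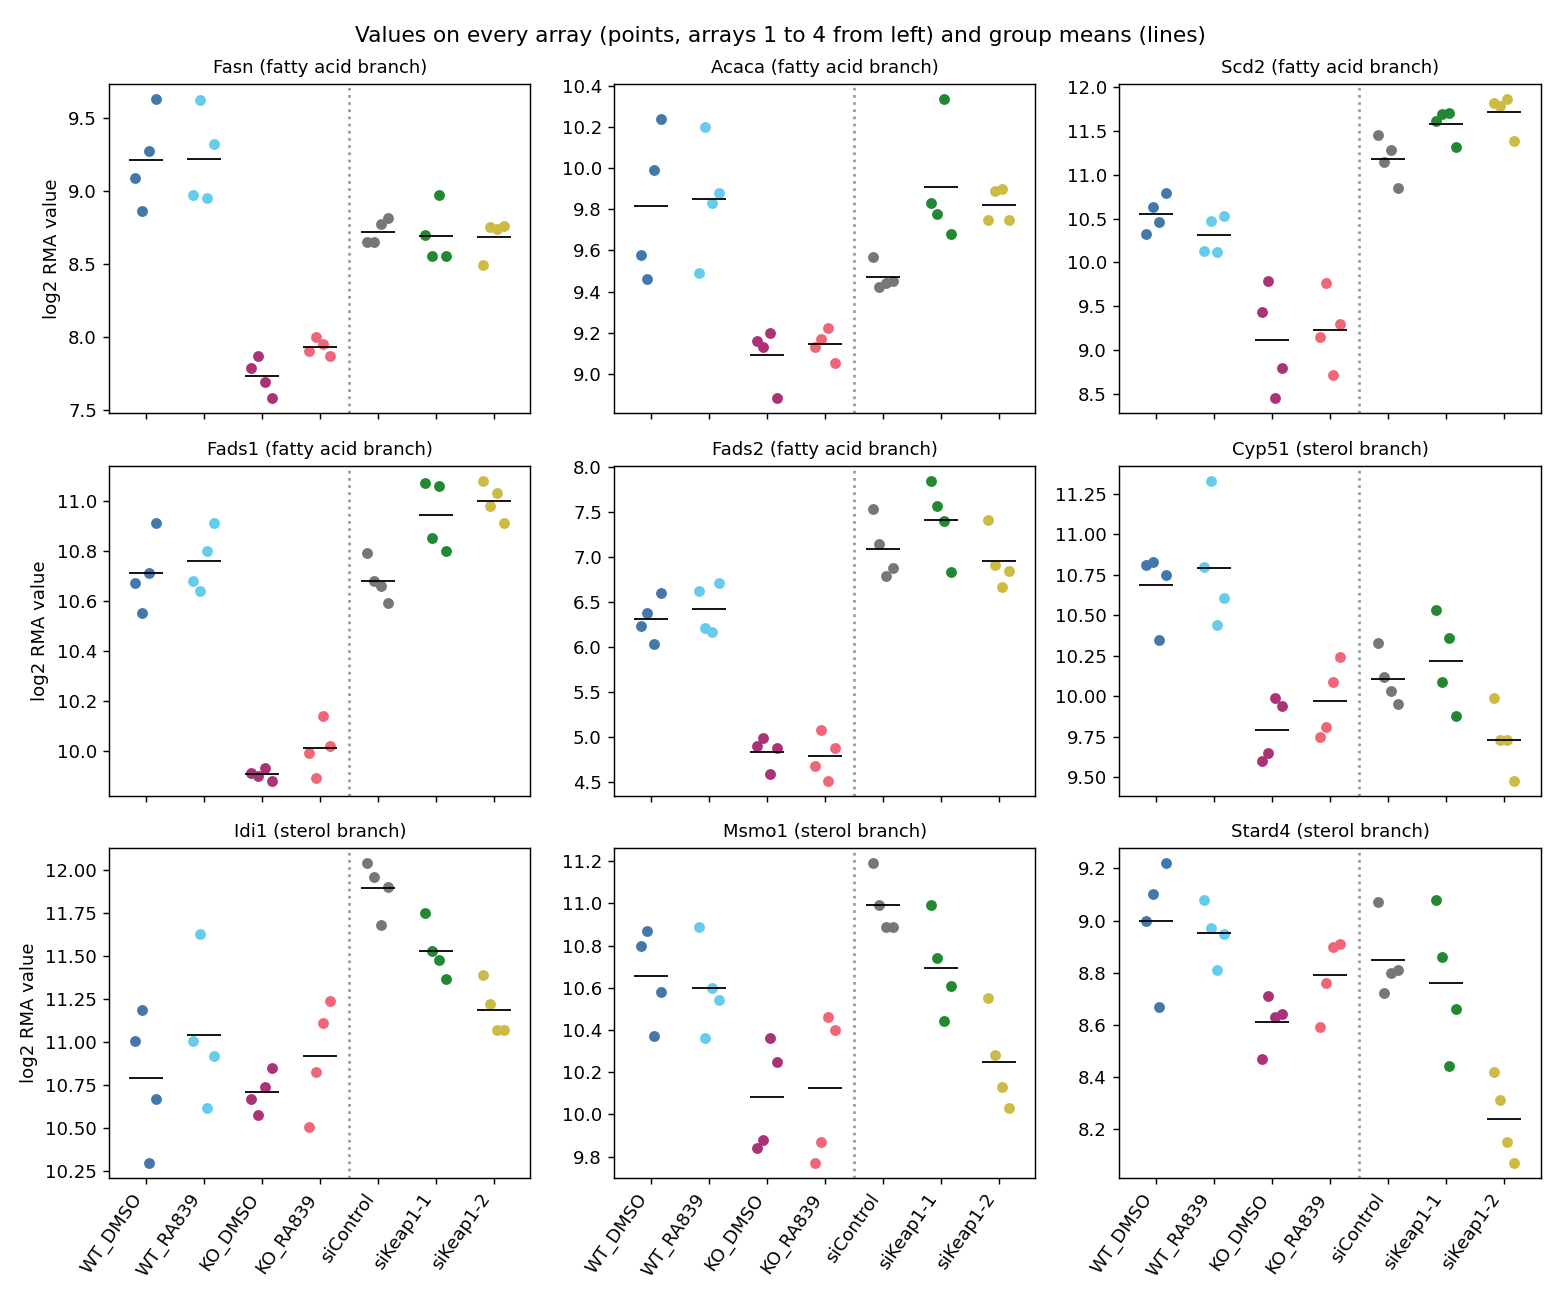
Points are log2 RMA values on each array for 5 fatty acid and 4 sterol members in the 7 groups, in order of array number, and lines are group means. The dotted line parts the compound from the siRNA experiment, which appear normalised apart, and each panel has its own axis. The KO values of Fasn, Scd2, Fads1 and Fads2 lie below the WT values in both media, and Idi1, Msmo1 and Stard4 are lowest with siKeap1-2 in the siRNA experiment.

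The fatty acid members called with a Keap1 siRNA were higher than with siControl. With siKeap1-1, 2 of 10 rose and 0 fell, where 8.67% of all genes rose and 6.39% fell (15.1% called), and the median was 0.18 beside 0.02. With siKeap1-2, 2 of 10 rose and 0 fell, where 6.32% rose and 4.89% fell (11.2% called), with a median of 0.01 beside 0.03. Both comparisons share the siControl arrays, so they are not independent of each other. Fads1 rose with both: it read 10.79, 10.68, 10.66 and 10.59 with siControl, 11.07, 10.85, 11.06 and 10.80 with siKeap1-1 (0.27 ± 0.07, limma adjusted p = 0.0307) and 11.08, 10.98, 11.03 and 10.91 with siKeap1-2 (0.32 ± 0.07, limma adjusted p = 0.015). All values with either Keap1 siRNA lay above all siControl values; 20% of all genes did not overlap with siKeap1-1 and 20.6% with siKeap1-2.

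Acaca read 9.57, 9.42, 9.44 and 9.45 with siControl, 9.83, 9.78, 10.34 and 9.68 with siKeap1-1 (0.44 ± 0.12, limma adjusted p = 0.0269) and 9.75, 9.89, 9.90 and 9.75 with siKeap1-2 (0.35 ± 0.12, limma adjusted p = 0.0798). The siControl values were below all others, and array 3 of siKeap1-1 was the highest. Scd2 read 11.46, 11.15, 11.28 and 10.85 with siControl, 11.61, 11.70, 11.71 and 11.32 with siKeap1-1 (0.40 ± 0.14, limma adjusted p = 0.0854) and 11.82, 11.78, 11.87 and 11.39 with siKeap1-2 (0.53 ± 0.14, limma adjusted p = 0.033), called with siKeap1-2 and overlapping siControl on array 4 of each siKeap1 group. The calls rested on single arrays and on the pooled spread. Without siControl array 2, 3 or 4 the 2 siKeap1-1 calls were lost (adjusted p up to 0.0852), that of Fads1 also without siKeap1-1 array 1 or 3, and when only the groups compared were fitted there were 0. Without siKeap1-2 array 1, 2 or 3 or siControl array 2, 3 or 4 that of Scd2 with siKeap1-2 was lost (up to 0.0929). Shifting arrays to a common median ended the Fads1 call with siKeap1-1 (0.0658). The mean of a gene's probe sets ended those of Acaca with siKeap1-1 (0.149) and Fads1 with siKeap1-2 (0.13), and fitting only the groups compared ended that of Scd2 with siKeap1-2 (0.053).

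Fasn was not called with either siRNA: it read 8.65, 8.65, 8.77 and 8.81 with siControl, 8.70, 8.55, 8.97 and 8.55 with siKeap1-1 and 8.49, 8.75, 8.74 and 8.76 with siKeap1-2, with 95% intervals of −0.24 to 0.19 and −0.25 to 0.18 for the differences. Fads2 read 7.54, 7.15, 6.79 and 6.88 with siControl, 7.85, 7.57, 7.40 and 6.84 with siKeap1-1 and 7.42, 6.91, 6.67 and 6.85 with siKeap1-2 (0.32 ± 0.23 and −0.13 ± 0.23, limma adjusted p = 0.42 and 0.793). Array 1 was the highest of each group. Scd1 read 12.62, 11.95, 11.51 and 11.35 with siControl, 12.87, 12.51, 12.22 and 12.28 with siKeap1-1 and 12.45, 12.12, 11.72 and 11.63 with siKeap1-2 (0.61 ± 0.27 and 0.12 ± 0.27, limma adjusted p = 0.162 and 0.843), and a dimmer probe set of it rose with siKeap1-1 (1.20, limma adjusted p over all probe sets = 0.00628). The others were not called and their groups overlapped, apart from Elovl5 with siKeap1-1 (0.09, and 0.04 with siKeap1-2). Srebf1 read 8.87, 8.95, 8.80 and 8.90 with siControl, 8.76, 8.99, 9.05 and 8.93 with siKeap1-1 and 8.75, 8.86, 8.95 and 8.92 with siKeap1-2. Acly read 14.07, 14.09, 14.03 and 14.10, then 14.03, 14.02, 14.01 and 14.03 with siKeap1-1 and 14.07, 14.02, 14.03 and 14.05 with siKeap1-2. Elovl6 read 7.17, 6.56, 6.79 and 6.40, then 7.31, 6.86, 6.73 and 6.38 with siKeap1-1 and 6.73, 6.58, 6.53 and 6.12 with siKeap1-2.

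Since same-numbered arrays deviate together here, a block for the replicate number was fitted too. It gave 4 fatty acid members higher with siKeap1-1 (Acaca, Fads1, Scd1 with adjusted p = 0.00204 and Scd2 with 0.00207), where 24% of all genes were then called, and Fads1 and Scd2 with siKeap1-2, where 20.4% were.

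**Figure D5:**
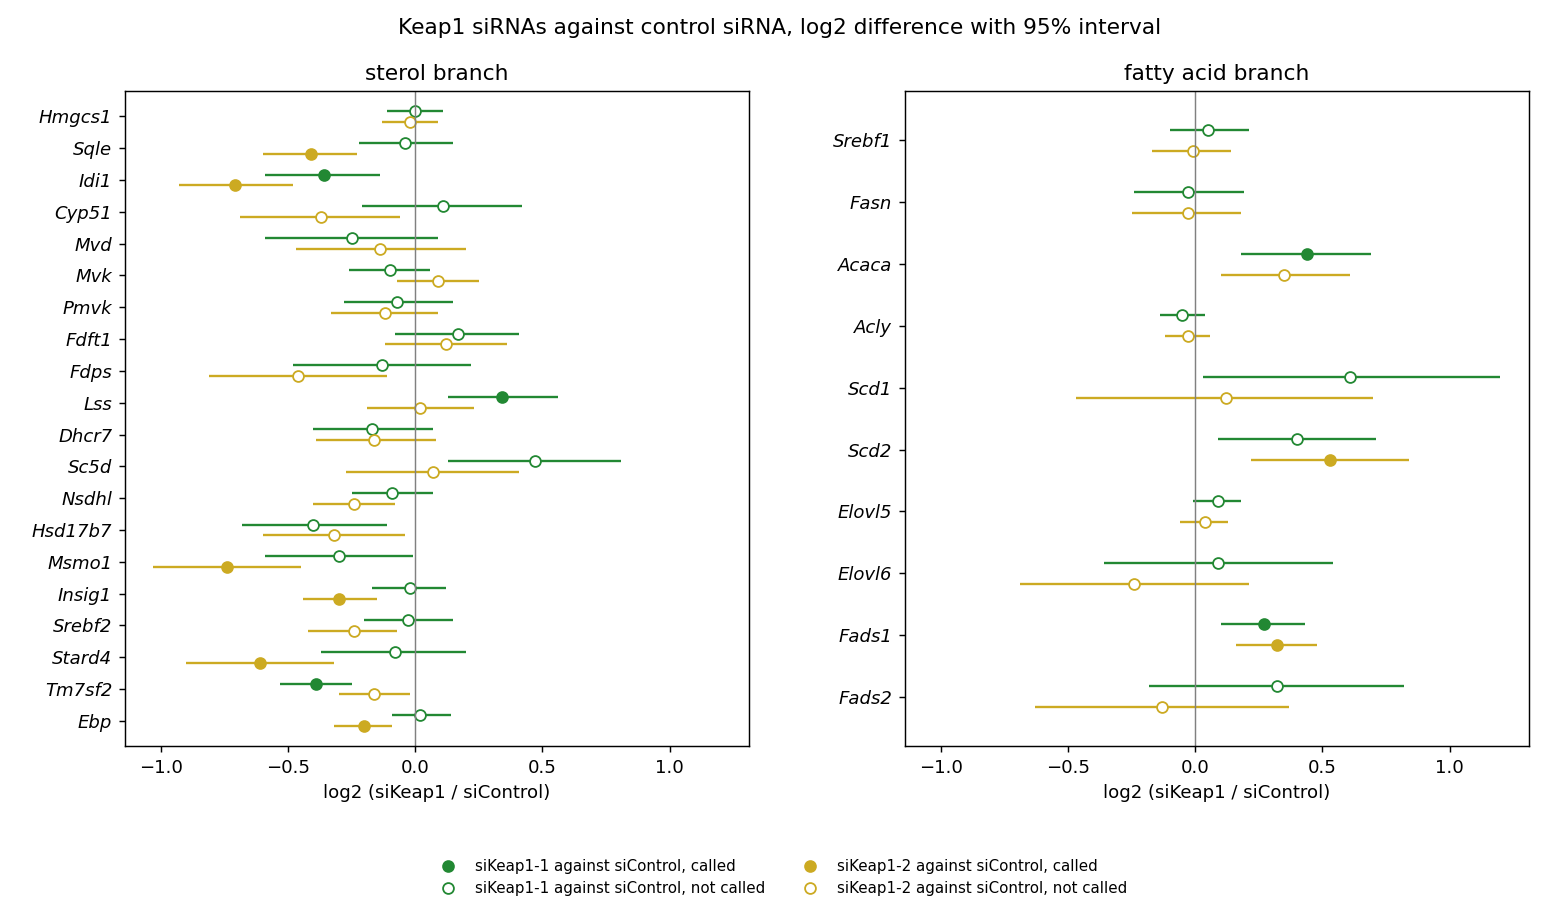
Points are log2 differences of siKeap1-1 and siKeap1-2 against siControl in WT macrophages, and bars are 95% intervals (4 arrays per group); filled points are members called at adjusted p under 0.05. Most sterol members lie left of 0 with siKeap1-2, 6 of them filled, while the filled fatty acid points lie right of 0.

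Sterol members called with siKeap1-2 were lower than with siControl. With siKeap1-2, 6 of 20 members fell and 0 rose, where 4.89% of all genes fell and 6.32% rose (11.2% called). Of the 20 members 16 had a value below 0, with a median of −0.22 beside 0.03 over all genes. Msmo1 fell most, from 11.19, 10.99, 10.89 and 10.89 with siControl to 10.55, 10.28, 10.13 and 10.03 (−0.74 ± 0.13, 1.67-fold, limma adjusted p = 0.00359). Idi1 fell from 12.04, 11.96, 11.68 and 11.90 to 11.39, 11.22, 11.07 and 11.07 (−0.71 ± 0.10, limma adjusted p = 0.000976) and Stard4 from 9.07, 8.72, 8.80 and 8.81 to 8.42, 8.31, 8.15 and 8.07 (−0.61 ± 0.13, limma adjusted p = 0.0104). None of the 3 overlapped, as was so for 20.6% of all genes in this comparison. Smaller falls were those of Sqle, from 10.21, 9.96, 9.99 and 9.98 to 9.78, 9.57, 9.61 and 9.51 (−0.41 ± 0.08, limma adjusted p = 0.00802), and Insig1, from 13.63, 13.52, 13.53 and 13.53 to 13.45, 13.26, 13.16 and 13.16 (−0.30 ± 0.07, limma adjusted p = 0.0149). Ebp, a sterol isomerase, fell least, from 10.80, 10.87, 10.85 and 10.86 to 10.54, 10.67, 10.61 and 10.74 (−0.20 ± 0.05, limma adjusted p = 0.0275). Its call ended without siKeap1-2 array 1, 2 or 3 or siControl array 2, 3 or 4 (adjusted p up to 0.0794) and with arrays shifted to a common median (0.051), whereas the other 5 held without any 1 array and under the 6 other settings. With the replicate block, where 20.4% of all genes were called, 13 sterol members fell, adding Cyp51, Fdps, Dhcr7, Nsdhl, Hsd17b7, Srebf2 and Tm7sf2. The mean of a gene's probe sets added Cyp51 (−0.54) and Srebf2 (−0.26) to the members called lower (limma adjusted p = 0.00963 and 0.0392).

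With siKeap1-1, 1 of 20 sterol members rose and 2 fell, a share near that of all genes (15.1% called, 8.67% higher and 6.39% lower), with a median of −0.08 beside 0.02. Tm7sf2 fell from 9.62, 9.60, 9.55 and 9.58 to 9.25, 9.34, 9.12 and 9.06 (−0.39 ± 0.06, limma adjusted p = 0.00143) and read 9.43, 9.50, 9.40 and 9.36 with siKeap1-2 (−0.16 ± 0.06, limma adjusted p = 0.135). Idi1 fell to 11.75, 11.53, 11.48 and 11.37 (−0.36 ± 0.10, limma adjusted p = 0.0347) and was the 1 sterol member called with both siRNAs; with the replicate block there were 5, all lower (Dhcr7, Hsd17b7, Idi1, Msmo1 and Tm7sf2). Lss rose from 9.93, 9.84, 9.78 and 9.70 to 10.38, 9.99, 10.32 and 9.95 (0.34 ± 0.10, limma adjusted p = 0.0328), and read 9.91, 9.82, 9.83 and 9.78 with siKeap1-2 (0.02 ± 0.10). Array 1 and array 3 of siKeap1-1 carried the upper values. The Tm7sf2 call held without any 1 array. That of Idi1 ended without siKeap1-1 array 2, 3 or 4 or siControl array 1, 2 or 4 (adjusted p up to 0.0926), and that of Lss without siKeap1-1 array 1 or 3 or siControl array 2, 3 or 4 (up to 0.0898) and with arrays shifted to a common median (0.0554). Neither Idi1 nor Lss was called when only the groups compared were fitted or with the mean of a gene's probe sets. With the replicate block, where 24% of all genes were called, 5 fell and 2 rose. The additions were Dhcr7, Hsd17b7 and Msmo1 below siControl and Sc5d above it (0.47, limma adjusted p = 0.000287). Sc5d read 10.24, 9.98, 9.94 and 9.73 with siControl, 10.76, 10.49, 10.33 and 10.21 with siKeap1-1 and 10.36, 10.19, 9.86 and 9.76 with siKeap1-2.

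The 2 siRNAs were then set against each other. Of 20 sterol members 4 were higher with siKeap1-1 than with siKeap1-2 and 1 was lower, where 3.57% and 3.88% of all genes were (7.45% called), and of 10 fatty acid members 0 were called (0 at an unadjusted p under 0.05). The sterol median was 0.22 beside 0.00. Stard4 differed by 0.53 ± 0.13 (limma adjusted p = 0.0313), reading 9.08, 8.86, 8.44 and 8.66 with siKeap1-1. Sqle differed by 0.38 ± 0.08 (limma adjusted p = 0.0189), with 10.18, 9.94, 10.00 and 9.86 under siKeap1-1, all above the siKeap1-2 values. Insig1, with 13.59, 13.54, 13.47 and 13.51, differed by 0.27 ± 0.07 and Ebp, with 10.86, 10.88, 10.82 and 10.91, by 0.23 ± 0.05 (limma adjusted p = 0.0316 and 0.0216), while Tm7sf2 was lower (−0.23 ± 0.06, limma adjusted p = 0.0498). These groups too did not overlap, as was so for 13.2% of all genes. Cyp51 read 10.33, 10.12, 10.03 and 9.95 with siControl, 10.53, 10.09, 10.36 and 9.88 with siKeap1-1 and 9.99, 9.73, 9.73 and 9.48 with siKeap1-2, a difference between the siRNAs of 0.48 ± 0.14 (limma adjusted p = 0.0698).

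Each of these calls ended without some single array: Sqle without siKeap1-2 array 2, 3 or 4 (adjusted p up to 0.0607), Stard4 without siKeap1-1 array 1 or 2 or siKeap1-2 array 2, 3 or 4 (up to 0.0866), Insig1 without siKeap1-1 array 1, 2 or 4 or siKeap1-2 array 2, 3 or 4 (up to 0.0936), Ebp without siKeap1-1 array 2 or 4 or siKeap1-2 array 1 or 3 (up to 0.0668) and Tm7sf2 without any of 7 arrays, all but siKeap1-1 array 2 (up to 0.143). When only these groups were fitted Sqle was the 1 member called. The mean of a gene's probe sets added Cyp51 (0.54) and Lss (0.44) to the members higher with siKeap1-1 (limma adjusted p = 0.0155 and 0.0208). With the replicate block 11 sterol members were higher and 1 lower, and Scd1, Elovl6 and Fads2 of the fatty acid branch were higher, where 14.6% of all genes were called. Keap1 itself differed between the siRNAs by −0.20 ± 0.08 (limma adjusted p = 0.199), which does not show that it fell alike with both.

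Other members had no call in the siRNA experiment in the main fit (1 probe set per gene, no replicate block). Hmgcs1 read 14.20, 14.14, 14.24 and 14.13 with siControl, 14.25, 14.15, 14.18 and 14.12 with siKeap1-1 and 14.19, 14.16, 14.17 and 14.10 with siKeap1-2, with 95% intervals of −0.11 to 0.11 and −0.13 to 0.09. These intervals hold for its brightest probe set. With the mean of its probe sets the differences lay outside them, at −0.23 and −0.18 (limma adjusted p = 0.108 and 0.248). Srebf2 read 9.53, 9.38, 9.29 and 9.29, then 9.52, 9.37, 9.24 and 9.25 with siKeap1-1 and 9.27, 9.07, 9.08 and 9.10 with siKeap1-2 (−0.24 ± 0.08 for siKeap1-2, limma adjusted p = 0.0797). Fdps read 9.53, 9.22, 9.25 and 9.17, then 9.58, 9.17, 9.02 and 8.87 with siKeap1-1 and 9.12, 8.97, 8.64 and 8.58 with siKeap1-2 (−0.46 ± 0.16 for siKeap1-2, limma adjusted p = 0.089). For both, all siKeap1-2 values lay below all siControl values. Fdft1 read 11.12, 10.80, 10.83 and 10.72, then 11.37, 10.91, 10.94 and 10.93 with siKeap1-1 and 11.10, 10.97, 10.89 and 11.00 with siKeap1-2. Mvd read 10.57, 10.32, 10.42 and 10.15, then 10.21, 10.03, 10.49 and 9.73 with siKeap1-1 and 10.33, 10.33, 10.34 and 9.91 with siKeap1-2. Their groups overlapped. Msmo1 and Stard4 with siKeap1-1 gave −0.30 ± 0.13 and −0.08 ± 0.13, and Insig1 −0.02 ± 0.07. The members without values by array differed from siControl with siKeap1-1 and siKeap1-2 by −0.10 and 0.09 (Mvk), −0.07 and −0.12 (Pmvk), −0.17 and −0.16 (Dhcr7), −0.09 and −0.24 (Nsdhl) and −0.40 and −0.32 (Hsd17b7).

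Among further genes of the pathways, Me1 and Acss2, which had fallen most in KO, rose with both Keap1 siRNAs. Me1 was at 2.15 ± 0.19 with siKeap1-1 and 2.05 ± 0.19 with siKeap1-2 (limma adjusted p = 2.15e-05 and 3.57e-05), and Acss2 at 1.22 ± 0.10 and 1.23 ± 0.10 (1.2e-05 and 1.17e-05). Dgat1 rose as well (0.37 and 0.36) and Mid1ip1 fell with both (−0.34 and −0.32), as it had in KO. With siKeap1-1 Mlx rose (0.40) and the acyl-CoA synthetase Acsl4 fell (−0.44), which made 4 of 20 higher and 2 lower, beside 8.67% and 6.39% of all genes. With siKeap1-2 Lpin1 rose (0.29) and Acsl3 fell (−0.65), again 4 and 2, beside 6.32% and 4.89%. Of 11 further sterol genes, Insig2 (0.35) and Ggps1 (0.25) rose and Mbtps2 fell (−0.22) with siKeap1-1, and Acat1 rose (0.46) and the oxysterol-forming Cyp27a1 (−0.52) and Ch25h (−0.40) fell with siKeap1-2, which makes 2 and 1 of 11 higher and 1 and 2 lower. RA839, in turn, raised Me1 in WT (0.82 ± 0.15, limma adjusted p = 0.0119), the 1 of 31 further pathway genes called in that comparison, and Acss2 was at 0.99 ± 0.37 (limma adjusted p = 0.349). Between the siRNAs Acsl3 (0.76) and Mlx (0.25) were higher with siKeap1-1, and Acat1 (−0.36), Acsl4 (−0.25), Lpin1 (−0.29) and Gpam (−0.41) lower.

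Some cell type markers were called with the siRNAs too. Of all genes 8.67% rose and 6.39% fell with siKeap1-1, and 6.32% rose and 4.89% fell with siKeap1-2. The summed log2 value of 3 measured markers of dividing cells was 9.91 to 10.22 with siControl, 9.35 to 9.77 with siKeap1-1 and 9.56 to 9.88 with siKeap1-2, and Top2a fell with both and Cdk1 with siKeap1-1. Of the stroma markers Pdgfra rose with both (0.98 and 1.88; sums of 6.88 to 7.62, 7.12 to 7.58 and 7.37 to 7.97). That of the 9 neutrophil markers was 11.86 to 13.02, 12.47 to 13.17 and 12.50 to 13.46, with S100a8 higher with both and Elane with siKeap1-1. The macrophage sum was 16.50 to 16.54, 16.40 to 16.45 and 16.39 to 16.42, with Fcgr1 and Cd14 lower with both and Adgre1 and Mertk with siKeap1-1. Of 4 dendritic cell markers 1 fell with siKeap1-1 (sums of 13.64 to 13.71 and 13.55 to 13.74). The part of these markers in the lipid synthesis values was not tested.

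Set side by side, both experiments gave 3 fatty acid members (Acaca, Fads1 and Scd2) and 1 sterol member (Lss) that were lower in KO and higher with a Keap1 siRNA, of 6 and 8 members called lower in KO in either medium. The share of all genes with such a pair of calls was not counted, so these counts are not read as a trait of the branches. Msmo1 and Stard4 were lower in KO and lower with siKeap1-2. With the replicate block in the siRNA fit the first counts were 3 (the same genes) and 2 (Lss and Sc5d), and Cyp51 joined Msmo1 and Stard4. Without the block, fitting only the groups compared ended the siKeap1-1 calls of Acaca, Fads1 and Lss and the siKeap1-2 call of Scd2. The call of Lss in KO ended with the mean of its probe sets and with arrays shifted to a common median. No fatty acid member fell with a Keap1 siRNA (0 of 10 by limma with or without the block), and 7 sterol members fell with at least 1, or 13 with the block. Singly and without the block, 6.39% of all genes fell with siKeap1-1 and 4.89% with siKeap1-2. The share of all genes that fell with at least 1 siRNA was not counted, so no contrast between the branches is read from these counts. The 7 sterol members Dhcr7, Fdps, Hmgcs1, Hsd17b7, Mvk, Nsdhl and Srebf2 and the 4 fatty acid members Acly, Elovl5, Elovl6 and Scd1 were called in none of the 8 comparisons of the main fit. The mean of a gene's probe sets called Hmgcs1 higher in KO in DMSO (0.25) and under RA839 (0.42), and Mvk higher in KO under RA839 (0.28). It also called Srebf2 lower with siKeap1-2 (−0.26), Elovl6 lower in KO in DMSO (−0.32) and Scd1 higher with siKeap1-1 (0.90). Of the regulators Srebf2 was called in 0, Srebf1 in 1 and Insig1 in 2 comparisons of the main fit.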

How the data were processed

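RNA of 28 macrophage samples was hybridised, 1 array a sample, in 7 groups of 4. The authors deposited log2 values made with RMA, per the labels and the submitters' processing notes; RMA corrects background, normalises by quantiles and summarises probes, and it narrows differences between dim probe sets. The compound and siRNA arrays had medians of 5.61 to 5.71 and 5.91 to 5.96 and appear normalised apart, so levels were compared within an experiment. Probe sets were named by GEO's platform annotation: of 45101, 34945 had 1 gene, 932 had several and were left out. One probe set stood for a gene, the one with the highest mean, which left 18193 genes and no further filter on dim ones. limma 3.58.1 (lmFit and eBayes, R 4.3.3) was fitted over the 16 compound and the 12 siRNA arrays, with Benjamini-Hochberg adjustment over all genes for each of 8 comparisons, and was tested on simulated data first. No pair of arrays was identical. The number of arrays limits the precision; the p-values measure the spread between these arrays.

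The members and lists were chosen with earlier results of these data known. Every member called was named, with values by array for a set of core genes, for those called in at least 2 comparisons and for the largest change of a branch. Deviations of same-numbered arrays from their group means correlated within WT (0.27 to 0.46), within KO (0.66 to 0.70) and among siRNA groups (0.12 to 0.66), but not between genotypes (−0.29 to −0.01), so the numbers were taken to pair samples within a genotype. Alternatives were a replicate block, a trended robust prior, only the groups compared, the mean of a gene's probe sets, a common array median, brighter genes only and leaving out each array; leaving out both WT arrays numbered 2 was added after the data were seen. Some genes are not reported here.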

Additional observations from a re-analysis of the deposited data

Results flagged for a closer look

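In 14 of 210 sets of 4 arrays (30 members in 7 groups) 1 array lay apart from the other 3 by more than Dixon's 95% limit, where chance gives about 5 percent. WT array 2 with RA839, the array with the large 3′ to 5′ gap, was that array for 4 members: it read 10.38 for Pmvk (others 9.56 to 9.67), 11.34 for Fdft1 (10.52 to 10.61), 12.60 for Dhcr7 (12.05 to 12.12) and 10.20 for Ebp (10.97 to 11.13). Array 1 lay apart in 5 siRNA sets: 10.21 for Sqle (9.96 to 9.99) and 13.63 for Insig1 (13.52 to 13.53) with siControl, 11.37 for Fdft1 (10.91 to 10.94) with siKeap1-1, and 9.27 for Srebf2 (9.07 to 9.10) and 8.49 for Fasn (8.74 to 8.76) with siKeap1-2. Array 4 of siKeap1-2 read 9.91 for Mvd (10.33 to 10.34) and 12.72 for Dhcr7 (12.99 to 13.04). The other 3 were WT arrays with DMSO at 10.35 for Cyp51 (array 3, others 10.75 to 10.83) and 9.29 for Pmvk (array 2, 9.65 to 9.70), and KO array 2 with DMSO at 14.02 for Hmgcs1 (13.95 to 13.96).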

How the results depend on the processing

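Of 3674 values of single members under an alternative, 3479 stayed on their side of the threshold, of which 195, called in neither fit, had the other sign. Another 116 lost their call and 78 gained one, with the sign kept. Of the called values 1 changed sign: Sc5d in KO against WT under RA839, at 0.05 (limma adjusted p = 0.804) with the mean of all probe sets. Of 246 counts of called members 203 stayed within 1.5 times. The counts with RA839 were 0 under every alternative, the replicate block included. With the replicate block the siKeap1-1 counts were 7 sterol and 4 fatty acid members, the siKeap1-2 sterol count was 13, and the counts between the siRNAs were 12 and 3; the block across genotypes, where numbers do not pair samples, left the genotype counts within 1.5 times. With the mean of all probe sets the sterol counts were 4 for KO against WT in DMSO and 1 for siKeap1-1, and the fatty acid count was 1 for siKeap1-2. With arrays shifted to a common median they were 4 sterol members for KO against WT in DMSO, 1 fatty acid member for siKeap1-1 and 3 sterol members between the siRNAs. Fitting only the groups compared gave 2 sterol members for KO against WT under RA839, 1 sterol and 0 fatty acid for siKeap1-1 and 1 sterol between the siRNAs. A trended robust prior gave 5 sterol members for siKeap1-1 and 8 between the siRNAs, and brighter genes only gave 5 and 9. Leaving out 1 array gave 4 to 7 sterol and 5 fatty acid members for KO against WT in DMSO, and 3 to 5 and 5 to 6 under RA839. It gave 1 to 3 and 0 to 4 for siKeap1-1, 5 to 6 and 1 to 2 for siKeap1-2, and 0 to 5 and 0 between the siRNAs. Fads2 and Elovl6 are dim, which limits their values; the causes of these shifts were not tested.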

Other observations

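KO macrophages differed among themselves in several lipid genes. Scd1 read 10.99 and 11.46 on KO arrays 1 and 2 with DMSO and 8.70 and 9.26 on arrays 3 and 4, and with RA839 11.13, 11.41, 9.18 and 9.57. Sqle ran the other way, with 8.56 and 8.90 on arrays 1 and 2 and 9.59 and 9.62 on arrays 3 and 4, and with RA839 8.82, 9.01, 9.76 and 9.78. What an array number shares is not stated, and these values were not tested.

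A list of 6 genes held the liver X receptors and genes that they switch on when cells hold sterol, and 5 of the 6 were measured. Apoe, an apolipoprotein that carries cholesterol out of macrophages, rose in KO in DMSO (2.41 ± 0.74, limma adjusted p = 0.0271) and under RA839 (2.88 ± 0.74), with 9.44 to 12.65 on WT arrays and 13.58 to 14.00 on KO arrays with DMSO. It fell with siKeap1-1 (−0.52 ± 0.11) and siKeap1-2 (−0.51 ± 0.11). The cholesterol exporter Abca1 fell with both siRNAs (−0.55 ± 0.11 and −0.38 ± 0.11), and Abcg1 with siKeap1-1 (−0.42 ± 0.06), while in KO Abcg1 rose under RA839 (0.36 ± 0.13). The receptor Nr1h3 fell in KO in DMSO (−0.47 ± 0.17) and with siKeap1-2 (−0.67 ± 0.19).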
